A study of Mus musculus with 11 samples.

Results

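The 7 genes described here, which encode potassium channel subunits of the vessel wall, were followed across the cell types of the mouse brain vasculature: Kcnj8, Abcc9, Kcnma1, Kcnmb1, Kcna5, Kcnab1 and Kcnj2. They were taken by gene symbol, and these 7 rows were found among the 32287 genes of the count matrices. The study compared R182C-TgN3 mice, a model of the inherited small vessel disease CADASIL whose human NOTCH3 transgene holds the R182C variant, with WT-TgN3 mice, whose human transgene lacks it. Both genotypes therefore carry human NOTCH3 besides mouse Notch3, and their labels give different transgenic line names, so variant, line and transgene RNA level cannot be told apart. Vessel fragments were pulled out of digested brain with CD31 antibodies, broken into single cells and sequenced with a droplet method that counts RNA molecules by unique molecular identifiers (UMIs), with 1 library per mouse. There were 6 R182C-TgN3 mice (3 of 6 months and 3 of 9 months) and 5 WT-TgN3 mice (3 of 6 months and 2 of 9 months), all untreated and of both sexes. The labels name 4 batches, none of which holds both ages, so age and batch cannot be told apart. In 1 of them R182C-TgN3 9 months replicate 3 is the only mouse. Fits with the batch as a covariate therefore take no genotype difference from it.

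Smooth muscle cells and pericytes, together called mural cells, set the width of brain vessels, and the potassium channels in their membrane hold the voltage that opens or closes calcium channels. When potassium channels open, the membrane becomes more negative, calcium entry falls and the cell relaxes. Kcnj8 encodes Kir6.1, the pore of the vascular ATP-sensitive (K-ATP) channel, and Abcc9 encodes SUR2, its regulatory subunit. Kcnma1 encodes the pore of the large-conductance calcium-activated (BK) channel and Kcnmb1 its β1 subunit, which raises its calcium sensitivity. Kcna5 encodes the voltage-gated pore Kv1.5 and Kcnab1 the accessory subunit Kvβ1, which binds Kv1 channels. Kcnj2 encodes the inward rectifier Kir2.1, known as a sensor of extracellular potassium in brain capillary endothelium.

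The libraries held 66658 barcodes with 17550806 to 64215050 UMIs each, and 58585 barcodes were kept as cells. Cells were assigned one by one from marker genes of each lineage, with no channel gene among those of the vessel wall, and are called smooth muscle-like (SMC), pericyte-like (PC) and endothelial-like (EC) cells. There were 2050 SMC (61 to 345 per mouse), 487 PC (16 to 125 per mouse) and 36770 EC, of which 3717 were arterial-like, 22525 capillary-like, 2172 venous-like and 1625 fenestrated-like; EC as a whole leaves out the fenestrated cells. Values of PC are over 10 mice, since WT-TgN3 9 months replicate 2 gave 16 PC, under the minimum of 20. In SMC the median of the 6 SMC markers was 4509 CPM (UMIs of a gene per 1000000 UMIs of the cells summed) against 24.8 CPM in PC, and the median of the 6 PC markers was 1147 CPM in PC against 99.5 CPM in SMC. All 6 EC markers gave UMIs in both, at medians of 12.9 CPM in SMC and 22.9 CPM in PC. Of 6 mural genes that the gate had not used, Anpep, a pericyte surface peptidase, was at 139 CPM in PC and 1.05 CPM in SMC over all cells, and Des, the filament protein desmin, at 91.6 and 556 CPM. The others differed less than Anpep: Rgs5 was at 5776 and 935 CPM, Pdgfrb at 2011 and 272, Cspg4 at 646 and 286, and Notch3 at 1097 and 620. Barcodes found in more than 1 library touched 54 of the mural cells and 1078 of the EC, and results that turn on them are given with and without them. Human NOTCH3 was at 247 ± 61.7 CPM in SMC of R182C-TgN3 mice (SD, n = 6) and at 39.4 ± 25.3 CPM in WT-TgN3 mice (SD, n = 5), with no overlap between the genotypes.

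The start-site sequences of the channel genes are shown because the mice carry a NOTCH3 transgene, and RBPJ, the DNA-binding partner of NOTCH receptors, recognises the letters TGGGAA. All 7 genes were matched to RefSeq start-site windows of mouse build GRCm38.p6, which run from 250 bases before to 50 bases after a start, and Kcnab1 had 3 windows. The windows of Kcnj8 and Abcc9 come first, since both genes lie next to each other on chromosome 6 on the minus strand with 16247 bases and no other annotated gene between them. Capitals mark TGGGAA or, where the match is on the other strand, TTCCCA. Kcnj8 (chr6:142571565-142571864, minus strand) and Abcc9 (chr6:142702225-142702524, minus strand) read, 5′ to 3′:
Kcnj8: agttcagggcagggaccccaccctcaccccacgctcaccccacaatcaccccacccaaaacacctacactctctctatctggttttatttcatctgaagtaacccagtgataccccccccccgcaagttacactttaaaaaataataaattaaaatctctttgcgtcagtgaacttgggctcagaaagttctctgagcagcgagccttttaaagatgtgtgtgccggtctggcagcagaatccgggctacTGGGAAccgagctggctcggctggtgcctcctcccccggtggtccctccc
Abcc9: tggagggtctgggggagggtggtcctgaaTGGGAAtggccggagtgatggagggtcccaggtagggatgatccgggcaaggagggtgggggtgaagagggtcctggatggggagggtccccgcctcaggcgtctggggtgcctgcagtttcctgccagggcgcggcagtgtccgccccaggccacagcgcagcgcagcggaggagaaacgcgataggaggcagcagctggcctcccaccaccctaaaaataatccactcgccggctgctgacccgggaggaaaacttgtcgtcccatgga
Shorter stretches of 60 bases around a match follow for Kcna5 (chr6:126535687-126535746, minus strand), the second window of Kcnab1 (chr3:65108995-65109054, plus strand), Kcnmb1 (chr11:33963003-33963062, plus strand) and Kcnj2 (chr11:111066154-111066213, plus strand):
Kcna5: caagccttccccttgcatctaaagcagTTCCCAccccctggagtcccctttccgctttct
Kcnab1: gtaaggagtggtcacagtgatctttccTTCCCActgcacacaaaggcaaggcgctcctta
Kcnmb1: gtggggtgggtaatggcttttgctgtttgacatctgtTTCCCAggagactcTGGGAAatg
Kcnj2: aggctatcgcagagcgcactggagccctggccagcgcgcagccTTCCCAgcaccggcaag
The match in Kcnj8 begins on the annotated start base itself and that in Abcc9 lies 221 bases before the start. Kcna5 and Kcnmb1 hold 2 matches each, Kcnj2 and the first and second windows of Kcnab1 hold 1, and Kcnma1 and the third window of Kcnab1 hold none. TGGGAA was searched on both strands and stood in 25.56% of all 32851 windows, and in a window of 28.31% of the 27025 genes. The longer form GTGGGAA, which contains it, was found in Kcna5 and in the second window of Kcnab1, against 6.383% of all windows. The MEF2 box was found in Abcc9, 8 bases before the start (3.187% of windows), while the CArG box (1.629%), AGATAA (11.18%) and CCGGAA (14.9%) were in none of the windows. These matches are descriptions of letters and say nothing of binding.

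The genes divided the vessel wall between them, as the plot of levels per mouse shows. Both subunits of the K-ATP channel were in PC, the BK pore, Kcnab1 and Kcna5 were in SMC, and the β1 subunit of the BK channel was in both. Kcnj2 was not a mural gene in these cells: it had no UMI in PC, 2.60 ± 1.59 CPM in SMC (SD, n = 11), and its higher levels were in EC and in microglia.

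**Figure D1:**
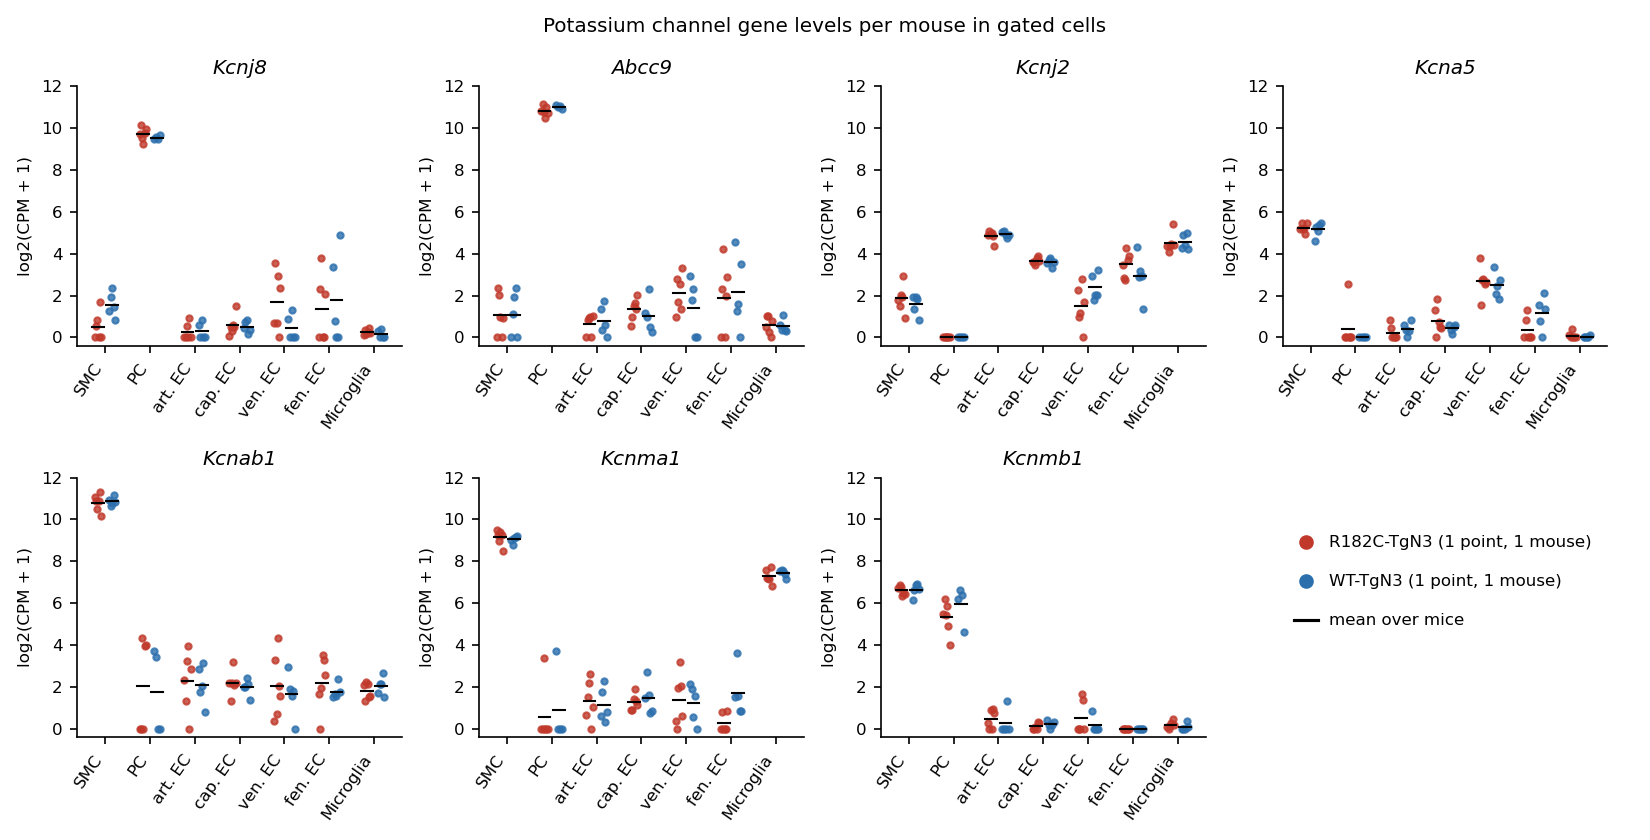
Level of each gene in each cell type, as log2(CPM + 1); 1 point is 1 mouse (red R182C-TgN3, blue WT-TgN3) and each black line is the mean of 1 genotype. Kcnj8 and Abcc9 stand high in PC, Kcnab1, Kcnma1 and Kcna5 in SMC, Kcnmb1 in both, and Kcnj2 in arterial EC and microglia, and the ranges of the genotypes overlap throughout.

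Kcnj8, the K-ATP pore, ranged in PC from 594 to 1142 CPM with a median of 777 CPM over 10 mice. Its level in SMC ranged from 0 to 4.16 CPM over 11 mice, and 3 of them had no UMI. Abcc9, its partner, ranged in PC from 1433 to 2233 CPM (median 1968) and in SMC from 0 to 4.20 CPM. The cell types did not overlap for either gene. In the edgeR fit over the 10 mice with both cell types, with the mouse as a block, Kcnj8 was 491-fold lower in SMC than in PC (log2 fold change -8.94 ± 0.191 SE, adjusted p = 8.71e-42) and Abcc9 was 711-fold lower (-9.47 ± 0.174 SE, adjusted p = 6.52e-45). Here and below, an SE of a log2 fold change was derived from the F statistic of its test and is no fitted error. Without the shared barcodes the log2 fold changes were -8.94 and -9.45. Within WT-TgN3 mice alone that of Kcnj8 was -7.99 and within R182C-TgN3 mice alone -10.48, and that of Abcc9 was -10.73 under a stricter gate. In this comparison 57.0% of the 5648 genes tested passed, 30% higher and 27% lower in SMC, so passing the test is no mark of a gene here. By the size of the difference Abcc9 stood 3rd and Kcnj8 5th from the lowest of all genes, and both entered the test through PC.

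The 6 members tested between SMC and PC all passed at an adjusted p of 0.05, 4 higher and 2 lower in SMC. The members other than Kcnmb1 entered the test through the cell type in which they are high, so the count and their ranks are descriptions. The median log2 fold change of the 6 was 3.10, that of all genes tested 0.012.

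**Figure D2:**
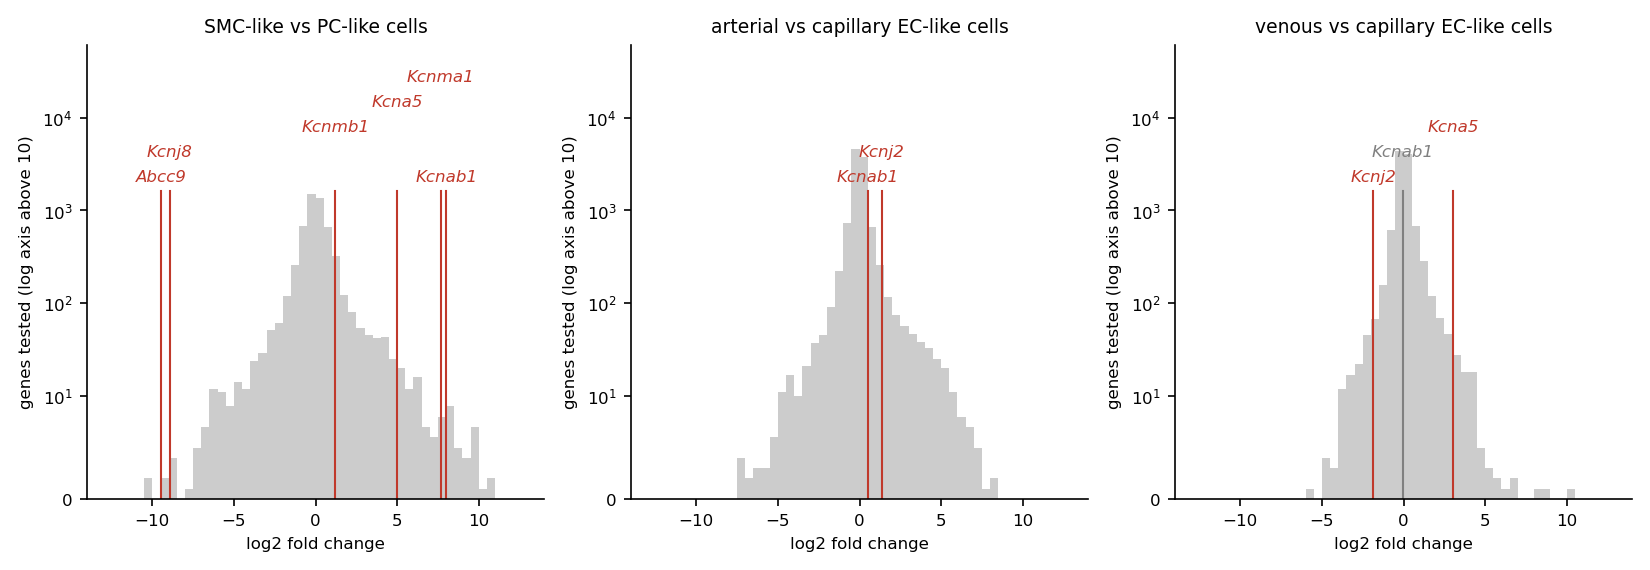
Distribution of the log2 fold changes of all genes tested in 3 comparisons of cell types (grey bars, log axis above 10 genes), with vertical lines at the member genes (red where the adjusted p is under 0.05, grey otherwise). Abcc9 and Kcnj8 lie at the low end of the comparison of SMC with PC, at -9.47 and -8.94, and Kcnab1 and Kcnma1 near the high end, at 8.01 and 7.67.

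Because single cells differ in depth (median 7989.5 UMIs in SMC and 3128 in PC), each cell was also thinned to 2000 UMIs, which left out 79 of the 487 PC and left 9 mice with at least 20 of them. Kcnj8 then gave a UMI in 66.8% ± 7.53 of PC per mouse (SD, n = 9) and Abcc9 in 90.7% ± 5.33, while without thinning the values were 81.0% and 93.4% over 10 mice. In thinned SMC the shares were 0.199% and 0.348%, and in thinned microglia, with a median depth of 4989 UMIs before thinning, 0.033% and 0.131%. The traces in SMC were 4 and 7 of 2012 cells, above the shares in microglia, with a median over mice of 0% for each gene. Thinned arterial EC (0.028% and 0.141%) and capillary EC (0.071% and 0.214%) were below SMC for both genes. Venous EC were at 0.305% for each gene and fenestrated EC at 1.10% and 1.04%. The traces in SMC came beside the 99.5 CPM of PC markers in the same cells, whose part in them was not tested. Of the 408 thinned PC, 61.3% held both RNAs, 28.2% Abcc9 alone, 6.13% Kcnj8 alone and 4.41% neither.

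Against capillary EC, the cells that pericytes sit on, Kcnj8 was 1381-fold and Abcc9 1115-fold higher in PC (adjusted p = 7.79e-54 and 5.10e-52). Kcnmb1 was 365-fold higher there (adjusted p = 2.22e-27). With doublets kept the log2 fold changes of these 3 genes were 9.42, 9.21 and 7.88 in place of 10.43, 10.12 and 8.51. Of the 5 members tested in this comparison 4 passed, 3 higher and 1 lower in PC, against 49.5% of all 10390 genes, 20% higher and 29.5% lower. Kcnj8 and Kcnmb1 were under the filter in capillary EC and entered the test through PC. Kcnj2, the 1 lower in PC, had no UMI there and entered through capillary EC, as did Kcnab1. For Kcnj8, Kcnmb1 and Kcnj2 the direction came with the way of entry. Their adjusted p-values and this count too are therefore descriptions. Kcnab1 did not pass (log2 fold change 0.95, adjusted p = 0.1303), but it did where cells were taken from clusters instead of the gate (3.55).

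Outside PC the K-ATP pair was sparse. In EC as a whole Kcnj8 was at 0.73 ± 0.67 CPM and Abcc9 at 1.76 ± 1.13 CPM (SD, n = 11). For Kcnj8 the fenestrated EC were the exception in 1 library: WT-TgN3 9 months replicate 2 gave 71 of their 95 Kcnj8 UMIs, at 28.4 CPM, and the other 10 mice gave 0 to 13.1 CPM. That library held 26 of the 67 Abcc9 UMIs in the same cells, and Abcc9 in fenestrated EC ranged from 0 to 22.7 CPM over the 11 mice. Kcnj8 UMIs per 100 Abcc9 UMIs were 44.5 in PC, 37.2 in capillary EC, 56.8 in venous EC and 141.8 in fenestrated EC. In 94 fibroblast-like cells pooled over mice, Abcc9 was at 148 CPM (175 UMIs) and Kcnj8 at 22.0 CPM (26 UMIs), which is 14.9 Kcnj8 UMIs per 100 of Abcc9.

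The BK pore Kcnma1 was at 362 to 716 CPM in SMC (median 567, n = 11), and in PC 8 of 10 mice had no UMI. It was 203-fold higher in SMC than in PC (log2 fold change 7.67 ± 0.252 SE, adjusted p = 4.55e-33). The PC value rests on 5 UMIs, and without R182C-TgN3 9 months replicate 3 the log2 fold change was 9.38. That shift is far larger than the SE, which is too small for a value resting on so few UMIs. After thinning, 59.0% ± 6.62 of SMC per mouse gave a Kcnma1 UMI, against 84.9% without thinning and 0.245% of PC. Microglia, the resident immune cells of the brain, held Kcnma1 at 166 ± 29.7 CPM (range 114 to 214, n = 11), without overlap with SMC, PC or any EC subtype, and 23.3% ± 3.58 of thinned microglia gave a UMI.

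Kcnmb1, the β1 subunit, was in both mural cell types. In SMC it ranged from 70.4 to 118 CPM (median 103, n = 11), and in PC from 14.9 to 97.1 CPM (median 50.9, n = 10), so the mice of both cell types overlapped. It was 2.32-fold higher in SMC (log2 fold change 1.22 ± 0.177 SE, adjusted p = 3.52e-08), 643rd of the 5648 genes from the highest. Within WT-TgN3 mice alone the log2 fold change was 0.78 and with cells taken from clusters it was 1.74. All PC together held 88 Kcnmb1 UMIs beside 5 of Kcnma1 and 13 of Kcnab1, 4 and 8 of these from R182C-TgN3 9 months replicate 3, where SMC held 1780 beside 9624 and 32473. Thinned PC gave a Kcnmb1 UMI in 10.9% ± 4.18 per mouse (SD, n = 9) and thinned SMC in 16.9% ± 3.85 (SD, n = 11). Its highest mean in an EC subtype was 0.42 CPM, in venous EC, and fenestrated EC had no UMI, which allows up to 0.274 CPM. Kcnmb1 (chromosome 11, 33963013 to 33973641, plus strand) overlaps Kcnip1 on the other strand, and Kcnip1 was also higher in SMC than in PC (log2 fold change 4.90), so reads of one assigned to the other cannot be told apart without the strand setting of the counting, which the sources used here do not state.

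Kcnab1, the Kv accessory subunit, ranged in SMC from 1134 to 2575 CPM (median 1854, n = 11). In PC 5 of 10 mice had no Kcnab1 UMI and the highest was at 19.1 CPM. The gene was 258-fold higher in SMC (log2 fold change 8.01 ± 0.209 SE, adjusted p = 9.14e-38), 28th of all genes from the highest. The log2 fold change was 8.96 without R182C-TgN3 9 months replicate 3 and 5.72 with cells taken from clusters. Thinned to 2000 UMIs, 92.1% ± 4.58 of SMC per mouse gave a Kcnab1 UMI, against 1.72% of PC, 0.732% of capillary EC and 0.656% of microglia. The annotated gene AC113458.1 overlaps Kcnab1 on the same strand, and its part in the Kcnab1 counts was not tested.

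Kcna5, the Kv1.5 pore, ranged in SMC from 23.0 to 43.8 CPM (median 37.0, n = 11). The PC of 9 of 10 mice had no Kcna5 UMI, and the 2 UMIs found came from R182C-TgN3 9 months replicate 3. The pooled level in SMC was 30.8 times that in PC, with a 95% exact counting interval of 8.49 to 255, and the edgeR log2 fold change was 4.99 ± 0.485 SE (adjusted p = 2.58e-13). The filter on low counts left the gene out under 7 of 24 alternatives: without that mouse, without the shared barcodes, in WT-TgN3 mice alone, with doublets kept, under a stricter gate, with at least 1000 genes per barcode and with ribosomal, mitochondrial and predicted genes kept. After thinning, 6.59% ± 2.66 of SMC per mouse gave a UMI against 0.245% of PC, and 23.6% of SMC did so without thinning. Of the thinned SMC with a Kcna5 UMI, 89.7% also had a Kcnab1 UMI, against 92.1% of those without.

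Kcna5 was also in venous EC. Venous EC ranged from 1.97 to 12.97 CPM (median 5.34, n = 11), arterial EC from 0 to 0.809 CPM and capillary EC from 0 to 2.56 CPM. Venous EC lay above arterial and capillary EC of the same mouse in 11 of 11 mice. The gene was 8.17-fold higher in venous than in capillary EC (log2 fold change 3.03 ± 0.311 SE, adjusted p = 1.84e-08), and 2 of the 3 members tested passed, 1 higher and 1 lower in venous EC, against 50.7% of all 10713 genes, 25.9% higher and 24.8% lower. Kcna5 entered this test through venous EC and Kcnj2 through capillary EC, so the count is a description. Kcnab1 did not pass (log2 fold change -0.05, adjusted p = 0.926), except with cells taken from clusters (-1.35). Venous EC held 130 Kcna5 UMIs beside 81 of Kcnab1, 35 of the latter from R182C-TgN3 6 months replicate 1, where capillary EC held 95 beside 425 and SMC 653 beside 32473. Kcna5 fell under the low-count filter when shared barcodes were left out, under a stricter gate, or without R182C-TgN3 9 months replicate 3. Only 0.805% ± 0.712 of thinned venous EC per mouse gave a UMI, against 0.133% of capillary EC and 0.00611% of microglia.

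Kcnj2, the inward rectifier pore, declined along the vessel tree from artery to vein. Arterial EC ranged from 19.5 to 32.9 CPM (median 29.1, n = 11), capillary EC from 8.94 to 13.9 CPM (median 11.3) and venous EC from 0 to 8.43 CPM (median 3.03). The 3 ranges did not overlap. Kcnj2 was 2.55-fold higher in arterial than in capillary EC (log2 fold change 1.35 ± 0.076 SE, adjusted p = 1.53e-13) and 3.63-fold lower in venous than in capillary EC (log2 fold change -1.86 ± 0.203 SE, adjusted p = 5.23e-08; -1.87 without the shared barcodes). Both members tested between arterial and capillary EC passed as higher in arterial EC, against 59.3% of all 10943 genes in either direction, 28.8% higher and 30.5% lower. The second, Kcnab1, was at 5.02 ± 4.26 CPM in arterial and 3.56 ± 1.75 CPM in capillary EC (log2 fold change 0.50 ± 0.215 SE, adjusted p = 0.0487). That call was lost with DESeq2 (adjusted p = 0.261) and when any of 6 mice was left out, and under a stricter gate the gene passed in the other direction (-0.70, adjusted p = 0.0301). With cells taken from clusters the log2 fold change was 3.07.

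Fenestrated EC, the leaky endothelium outside the blood-brain barrier, had Kcnj2 at 9.80 ± 5.48 CPM, and 8 of 11 mice had less there than in capillary EC. Microglia had Kcnj2 at 16.02 to 41.0 CPM (median 20.3), overlapping with arterial EC and above capillary EC in 11 of 11 mice. The 487 PC had no Kcnj2 UMI among 1615711 UMIs, which allows up to 1.86 CPM at 3 counts, so capillary EC were at least 6.09-fold and arterial EC at least 15.5-fold higher. In SMC 39 UMIs were found, 0.774 to 6.74 CPM per mouse, beside medians of 12.9 CPM for the EC markers and 15.003 CPM for the microglia markers in the same cells, whose part in the Kcnj2 level was not tested. Thinned cells gave a Kcnj2 UMI in 5.41% ± 1.24 of arterial EC, 2.57% ± 0.432 of capillary EC, 0.747% ± 0.779 of venous EC and 4.31% ± 1.58 of microglia per mouse.

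The gate left out 140 mural cells that held both SMC and PC markers and lay below its limit for EC markers, 5 to 21 per mouse. These cells were chosen for mixed markers, and their channel levels are a description. Pooled over mice, they held Kcnj8 at 105 CPM and Abcc9 at 122 CPM, which is 12.5% and 6.39% of the levels in PC. Kcnab1 was at 551 CPM and Kcnma1 at 79.4 CPM, 29.0% and 14.1% of the levels in SMC. By contrast Kcnmb1 (103 CPM) and Kcna5 (39.7 CPM) were at 99.1% and 104% of their SMC levels. The mural genes Rgs5, a regulator of G-protein signalling, and Notch3 were at 120% and 117% of their PC levels, and Kcnj2 had no UMI.

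The K-ATP pair and the SMC genes were also counted within single cells. Of 123 such cells thinned to 2000 UMIs, 21.1% gave a UMI of Kcnj8 or Abcc9 without Kcnab1 and Kcnma1, 30.1% the reverse, 6.504% both and the rest neither, and at this depth a missing UMI does not show that a cell lacks the RNA. Both were found in 0.348% of thinned SMC and 2.21% of thinned PC. Doublets had been removed by score, and the part of remaining doublets in the 8 cells with both sets was not tested.

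**Figure D3:**
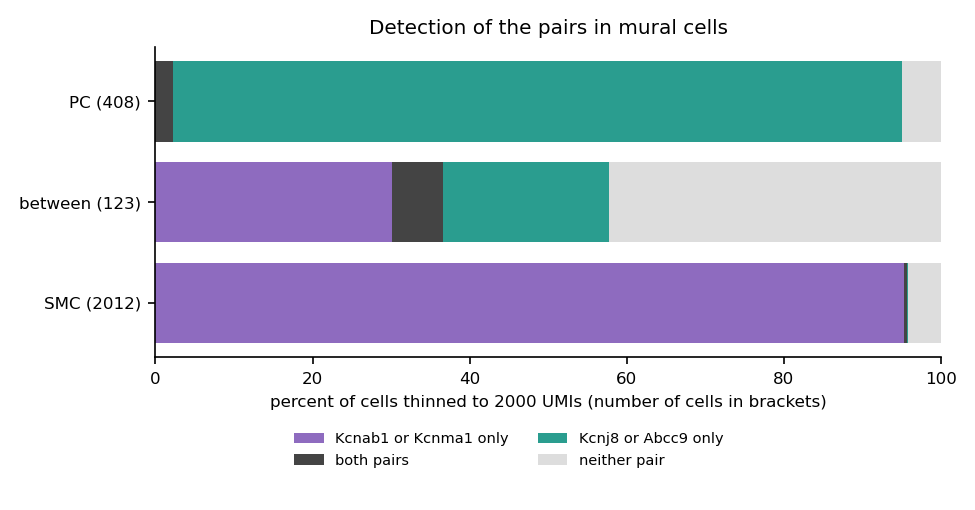
Percent of thinned mural cells (x axis) that gave a UMI of Kcnab1 or Kcnma1 only (purple), of Kcnj8 or Abcc9 only (green), of both sets (black) or of neither (grey), for PC, SMC and the cells between them, with the number of cells in brackets. The cells between hold 30.1% with the first set only, 21.1% with the second only and 6.504% with both.

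Channel levels were also taken along the contractile content of the SMC, as a description with no test. The SMC of each mouse were split into 3 groups of equal size by the share of their UMIs from the 6 contractile genes of the gate (medians 1.91%, 2.82% and 3.77%), and levels were taken as CPM of the remaining UMIs. The groups are ranges and not cell types, and 359 of 2050 cells lay within 0.1 percentage points of a limit. Median depth was 7472, 8038 and 7801 UMIs. Kcnma1 went from 407 ± 116 CPM in the low group to 688 ± 139 CPM in the high group (SD, n = 11), and was higher in 11 of 11 mice. Kcnmb1 went from 90.9 ± 24.6 to 117 ± 21.5 CPM, higher in 10 of 11 mice. Kcnab1 was at 2002 ± 382, 2017 ± 477 and 1725 ± 449 CPM in the low, middle and high group, with 8 of 11 mice lower in the high than in the low group, and Kcna5 was at 43.1 ± 12.0, 37.7 ± 13.5 and 32.2 ± 6.28 CPM, with 9 of 11 lower. All 21 Kcnj8 UMIs and all 34 Abcc9 UMIs of SMC lay outside the high group, whose count of 0 allows up to 0.542 CPM. Beside these values, Rgs5 went from 1945 to 281 CPM and Des from 454 to 707 CPM, each in 11 of 11 mice.

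**Figure D4:**
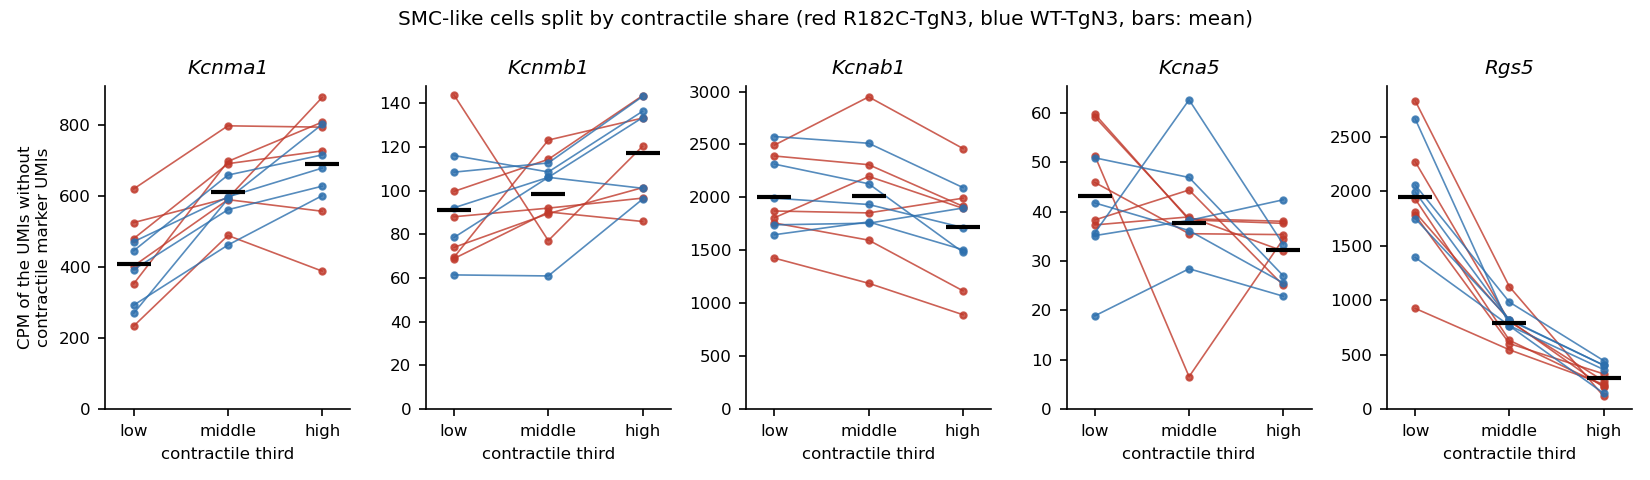
Levels in the low, middle and high group of SMC by contractile share, in CPM of the UMIs without the contractile markers; 1 line is 1 mouse (red R182C-TgN3, blue WT-TgN3) and the black bars are means. Kcnma1 goes up from 407 to 688 CPM and Rgs5 down from 1945 to 281 CPM in every mouse, while Kcnmb1, Kcnab1 and Kcna5 differ less.

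Genes of other potassium channels were taken by a rule on symbols (98 genes starting with Kcn, with Abcc8 and 4 BK γ subunits). Between SMC and PC 8 of them were tested, and 3 passed as higher and 1 as lower in SMC, against the 57.0% of all genes; their median log2 fold change was 0.41. Kcnip1, a Kv4-binding protein, had a log2 fold change of 4.90 ± 0.425 SE (adjusted p = 4.76e-15) and Kcnk3, the background channel TASK-1, 2.36 ± 0.201 (2.18e-15). Kcnt2, a sodium-activated channel, was lower in SMC, at -2.60 ± 0.209 (2.23e-16). Among EC, 12 of 16 tested passed between arterial and capillary EC, 7 higher and 5 lower in arterial EC, against 59.3% of all genes, and 7 of 12 between venous and capillary EC, 4 higher and 3 lower in venous EC, against 50.7%.

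The genes whose levels ran most like each member were sought over 76 sums of a cell type in a mouse, which share libraries and 7 cell types, so the coefficients describe the cell type pattern. For Kcnj8 the closest of 18268 genes was Abcc9 (Pearson r = 0.963), followed by Cygb (0.940) and Ggt1 (0.930). For Abcc9 they were Kcnj8, Ano4 (0.951) and Ggt1 (0.941). For Kcnma1 they were Gm37800 (0.948), Slc16a7 (0.943) and Dusp27 (0.941), and for Kcnmb1 Slc2a4 (0.974), Sox5os4 (0.971) and Itga7 (0.968). For Kcnab1 they were Ntrk3 (0.936), Otogl (0.935) and Htr1b (0.934). Kcna5 ran closest to Scn4b (0.926), Actn1 (0.881) and Plin4 (0.858), and Kcnj2 to Anxa3 (0.912), Adamts6 (0.888) and Smad7 (0.863). No member had another member of its own channel among its 3 except the K-ATP pair.

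The comparison of R182C-TgN3 with WT-TgN3 mice asked whether the CADASIL variant goes with other channel levels. No member passed in any cell type, and the genotypes overlapped for each member in each type. In SMC 0 of 4 members tested passed, against 0.0116% of all 8606 genes, and in PC 0 of 2, against 0.0442% of 2264. In each of these the 1 gene that passed was human NOTCH3 (log2 fold change 2.49 in SMC and 1.33 in PC, adjusted p = 6.61e-05 and 0.00013), while mouse Notch3 did not (-0.08 and 0.13). In EC, arterial, capillary and venous EC, 0 of 6, 2, 4 and 1 members tested passed, against 0.0% of all genes. At an unadjusted p under 0.05 there were 235 genes in SMC, 125 in PC, 152 in EC, 167 in arterial, 212 in capillary and 402 in venous EC, none of them a member, and DESeq2 called 1 gene in SMC, 1 in PC, 0 in EC and 1 in venous EC, none of them a member. Without the low-count filter the edgeR interval of Kcnj8 left out 0 in 2 cell types in which the gene is sparse, though neither passed the adjusted test. In SMC, with 3 Kcnj8 UMIs in R182C-TgN3 mice (0 to 2.25 CPM) and 18 in WT-TgN3 mice (0.774 to 4.16 CPM), the log2 fold change was -2.26 with an interval from -3.87 to -0.65 (adjusted p = 0.909). In venous EC, with 42 UMIs (0 to 10.8 CPM) and 4 UMIs (0 to 1.52 CPM), it was 2.76 with an interval from 0.83 to 4.69 (adjusted p = 0.877).

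In PC, Kcnj8 was at 594 to 1142 CPM in the 6 R182C-TgN3 mice (median 851) and at 708, 710, 748 and 807 CPM in the 4 WT-TgN3 mice. The WT-TgN3 values lay inside the R182C-TgN3 range. The log2 fold change was 0.23 with a 95% interval from -0.10 to 0.57 (adjusted p = 0.948), and 0.23 with the batch as a covariate. Abcc9 was at 1433 to 2233 CPM in R182C-TgN3 mice (median 1745) and at 1886, 2050, 2132 and 2155 CPM in WT-TgN3 mice. The log2 fold change was -0.16 with an interval from -0.44 to 0.11 (adjusted p = 0.978), and -0.16 with the batch. Kcnmb1 was under the low-count filter in PC, at 43.7 ± 20.7 CPM in R182C-TgN3 mice (SD, n = 6) and 69.3 ± 32.1 CPM in WT-TgN3 mice (SD, n = 4). Tested without the filter it had a log2 fold change of -0.50 with an interval from -1.25 to 0.25 (adjusted p = 0.857).

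In SMC the intervals were narrower. Kcnab1 was at 1844 ± 508 CPM in R182C-TgN3 mice (SD, n = 6) and 1883 ± 275 CPM in WT-TgN3 mice (SD, n = 5), and the 95% interval of its fold change ran from 0.809 to 1.24. For Kcnma1, at 577 ± 128 and 530 ± 58.8 CPM, the interval ran from 0.924 to 1.36. For Kcnmb1, at 97.8 ± 14.3 and 101 ± 19.3 CPM, its log2 fold change had an interval from -0.26 to 0.26, and for Kcna5, at 37.3 ± 5.61 and 35.3 ± 7.73 CPM, that of the fold change ran from 0.852 to 1.33. The adjusted p of each of the 4 was 1.0. With the batch as a covariate the log2 fold changes of Kcnab1, Kcnma1, Kcnmb1 and Kcna5 were 0.029, 0.17, -0.069 and 0.074.

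In EC, Kcnj2 was the best measured member. Its fold change between genotypes had a 95% interval from 0.841 to 1.11 in EC as a whole, from 0.801 to 1.19 in arterial EC and from 0.909 to 1.27 in capillary EC (adjusted p of 1.0 in each). In arterial EC the 6 R182C-TgN3 mice ranged from 19.5 to 32.9 CPM (median 29.3) and the WT-TgN3 mice were at 25.5, 28.4, 29.1, 31.8 and 32.7 CPM. Kcna5 in venous EC was at 1.97 to 12.97 CPM in R182C-TgN3 mice (median 5.53) and at 2.53, 3.15, 4.56, 5.62 and 9.25 CPM in WT-TgN3 mice. Its log2 fold change was 0.63 with an interval from -0.23 to 1.48 (adjusted p = 0.981). Kcnj8 in EC was at 0.0836 to 2.23 CPM in R182C-TgN3 mice (117 UMIs) and 0.262 to 0.758 CPM in WT-TgN3 mice (47 UMIs), and its interval ran from a fold of 0.793 to 5.63.

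**Figure D5:**
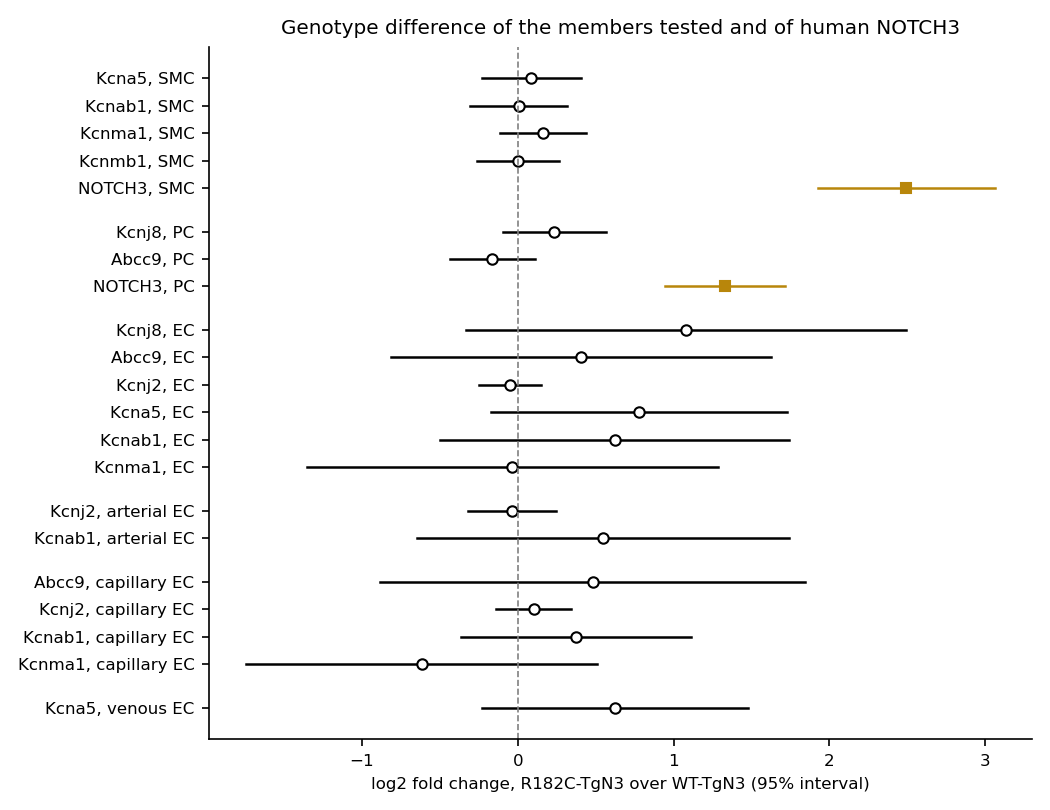
Log2 fold change of R182C-TgN3 over WT-TgN3 mice for each member tested in each cell type (open circles) and for human NOTCH3 (filled squares), with 95% intervals as lines. The intervals of the members drawn span 0, and those of NOTCH3, at 2.49 in SMC and 1.33 in PC, do not.

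Whether the genotype difference itself differed between 6 and 9 months was tested with an interaction term. In edgeR none of the 4 members tested in SMC, 3 in PC or 6 in EC passed, against 0.0% of all 9318, 3616 and 13626 genes. At an unadjusted p under 0.05 there were 234, 186 and 199 genes, and DESeq2 called 0 in each. Without the filter, Kcnmb1 in EC had a log2 difference of -2.47 with an interval from -4.82 to -0.11 (edgeR adjusted p = 1.0). The only member among those that passed the filter was Kcnmb1 in PC (log2 difference of the fold changes 2.55, 95% interval from 0.20 to 4.89, adjusted p = 0.937). Its R182C-TgN3 mice were at 58.2, 29.2 and 14.9 CPM at 6 months and 43.5, 73.4 and 43.1 CPM at 9 months, and its WT-TgN3 mice at 72.2, 97.1 and 84.3 CPM at 6 months, with a single mouse at 23.7 CPM at 9 months. The 9-month contrast rests on that 1 mouse, and all these values come from few counts (56 Kcnmb1 UMIs in R182C-TgN3 mice and 28 in WT-TgN3 mice).

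The mixture of mural cells was compared as well, since it sets which channels a vessel sample holds. PC made up 24.7% ± 9.59 of gated mural cells in R182C-TgN3 mice (SD, n = 6; range 16.8% to 42.2%) and 15.03% ± 10.7 in WT-TgN3 mice (SD, n = 5; range 5.99% to 30.5%). The difference of 9.71 percentage points did not pass a two-sided exact permutation test (p = 0.147), and it was 3.46 points within batches (p = 0.556). The highest share, 42.2%, was that of R182C-TgN3 9 months replicate 3, the only mouse of its batch. Without WT-TgN3 6 months replicate 3 it was 13.6 points (exact permutation p = 0.0381). The cells came through a CD31 capture, and a share of captured cells is not a share of the cells in the vessel wall.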

How the data were processed

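Microvessel fragments of 11 mouse brains were captured with CD31 antibodies and profiled by 3′ single-cell RNA-seq, 1 library per mouse. Per the labels, the authors aligned reads with Cell Ranger 7.0.0 to mm10 with human NOTCH3 added and deposited whole-number UMI counts per gene and barcode. Libraries held 17550806 to 64215050 UMIs.

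Kept barcodes had 500 or more genes detected and no more than 10% of their UMIs from mitochondrial genes. The highest doublet scores (0.8% per 1000 barcodes) were removed. A cell was assigned to 1 of 16 lineages when at least 3 of its markers were detected and no other lineage scored over 50% of the best, and to an EC subtype with at least 2 markers and a limit of 67%. Raw UMIs were summed per mouse and cell type, with at least 20 cells. Sums were tested with edgeR 4.0.16 (quasi-likelihood, TMM, filterByExpr; R 4.3.3, limma 3.58.1) and adjusted over all genes tested by the Benjamini-Hochberg method, with a threshold of 0.05. The log2 CPM values behind the correlations had a prior count of 2, while the fold changes of the fits kept the edgeR default. Cell types were compared with the mouse as a block, and shares of cells by an exact permutation test. Confidence intervals are at 95%, and a count of 0 was read as allowing 3 counts. Counting intervals and these limits cover counting error only, and the p-values measure the spread between mice. Each SE and interval of an edgeR fold change was derived from the F statistic of its test. For Kcna5 between SMC and PC that interval ran from 16.1-fold to 62.2-fold, narrower than the counting interval of 8.49 to 255. Where a gene has few UMIs in 1 cell type, its SE can therefore be too small. The pipeline was tested on simulated data.

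The genes described, the channel list and the markers were chosen with earlier results of these data known. The text names the 7 genes in every gated type, NOTCH3 and Notch3, other Kcn genes called between genotypes, the 5 largest rises and falls of those called between SMC and PC, and the 3 genes most like each member; a gene that passed between SMC and PC is not reported here. Alternatives were DESeq2 1.42.0, its size factors in edgeR, other filters, gates and cell minimums, Leiden clusters (leidenalg 0.10.2), batch, age or sex as covariates, each age or genotype alone, a replicate block, and each mouse left out. Leaving out the shared barcodes was chosen after seeing the data. Whether replicate numbers of equal value mark paired mice is not settled. The correlations of their deviations ran from -0.115 to 0.386, and mice of unequal number were not set beside them. Start-site windows were read from RefSeq (GRCm38.p6) and gene positions from GENCODE (mm10). Promoter coordinates are those of the RefSeq table.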

Additional observations from a re-analysis of the deposited data

Results flagged for a closer look

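Of 46 groups of 4 to 6 mice of 1 genotype examined for a single value far from the rest, 8 held one, and chance alone flags about 1 in 20 groups. Of these, 7 were low levels in endothelial cells. R182C-TgN3 6 months replicate 1 had Kcnab1 at 16.5 CPM in EC, where the other R182C-TgN3 mice were at 1.81 to 4.09 CPM, and at 8.16 CPM in capillary EC (others 1.498 to 3.65). The same mouse had Kcnma1 at 5.81 CPM in EC (others 0.641 to 2.17). WT-TgN3 6 months replicate 1 had Kcna5 at 1.83 CPM in EC, above the other WT-TgN3 mice at 0.654 to 0.964 CPM. In capillary EC, WT-TgN3 6 months replicate 3 had Abcc9 at 4.01 CPM (others 0.197 to 1.24), and WT-TgN3 6 months replicate 2 had Kcnma1 at 5.59 CPM (others 0.677 to 2.07). R182C-TgN3 9 months replicate 1 had Kcna5 at 12.97 CPM in venous EC (others 1.97 to 6.04).

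The remaining value was Kcnj2 in microglia, at 41.0 CPM in R182C-TgN3 6 months replicate 2 and 16.02 to 20.7 CPM in the other R182C-TgN3 mice. Among the groups examined, which were the members tested between genotypes with Kcnmb1 in PC, Kcnj2 and Kcnma1 in microglia and the PC share, none in PC or SMC held such a value.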

How the results depend on the processing

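Over all settings other than leaving out a mouse, 356 of 382 fold changes of the channel genes kept their direction and their side of the threshold, and 247 of 270 did so when a mouse was left out. Between genotypes no member was called under any setting run. For Kcnab1 in SMC the log2 fold change between genotypes was -0.0027 with all genes kept, -0.042 at 20% mitochondrial UMIs, -0.0041 with doublets kept, -0.020 under the stricter gate, -0.050 with Leiden clusters, -0.0017 without shared barcodes, -3.5e-05 with age as a covariate, -0.12 at 9 months and -0.10 to 0.092 when a mouse was left out. For Kcnmb1 in SMC it was 0.0029 without the filter, 0.0072 without shared barcodes, 0.0087 with sex as a covariate, 0.044 at 9 months and -0.087 to 0.053 when a mouse was left out. Kcna5 in SMC was at -0.055 at 9 months. Abcc9 in PC was at 0.038 with Leiden clusters and 0.072 at 9 months. Kcnj2 in arterial EC was at 0.039 under the stricter gate, 0.21 at 9 months and -0.10 to 0.045 when a mouse was left out.

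Between cell types, Kcnab1 turned to -0.70 in arterial against capillary EC under the stricter gate (adjusted p = 0.0301; 3.07 with Leiden clusters), and to 0.27 in venous against capillary EC with no replicate block (-0.42 to 0.14 when a mouse was left out). Of the members, 1 was called between arterial and capillary EC with doublets kept, with no replicate block, in WT-TgN3 mice alone and in R182C-TgN3 mice alone (1 to 2 when a mouse was left out). The Kcnab1 call was lost without R182C-TgN3 9 months replicate 1 or 3, R182C-TgN3 6 months replicate 1 or 3, WT-TgN3 6 months replicate 1 or WT-TgN3 9 months replicate 1 (adjusted p from 0.0132 to 0.151 over all 11). Between venous and capillary EC 4 were called with DESeq2 and without the filter, and 1 under the stricter gate and without shared barcodes (1 to 2 when a mouse was left out). Of other channel genes, 11 were called between SMC and PC with DESeq2, 15 without the filter and 8 with Leiden clusters. The difference in PC share was 6.22 to 13.6 points when a mouse was left out (exact permutation p from 0.0381 to 0.295). The cause of these changes was not tested. Of 24 shares of cells with a UMI, 20 moved with the depth of thinning.

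With the replicate block 0 members were called between genotypes in each cell type, and the count over all genes in PC was 5 in place of 1. Whether the replicate numbers pair the mice is not settled. The test of genotype by age in PC could not be fitted without WT-TgN3 9 months replicate 1, which leaves no WT-TgN3 mouse of that age. Counts were few for Kcnj8 and Abcc9 in SMC (21 and 34 UMIs) and for Kcna5 in PC (2 UMIs).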

Other observations

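Outside the vessel wall the channel genes were found in small gated populations, each pooled over mice, so the values have no replicate check. In 25 ependymal-like cells, the ciliated lining of the ventricles, Kcnma1 was at 445 CPM (154 UMIs) and Kcnmb1 at 95.3 CPM (33 UMIs), so both BK subunits were present. In 34 astrocyte-like cells Kcnma1 was at 227 CPM (42 UMIs) and Kcnmb1 had no UMI. In 49 pituitary-like cells Kcnab1 was at 148 CPM (162 UMIs) and Kcnma1 at 162 CPM (177 UMIs), with 7 UMIs of Kcna5 and none of Kcnmb1. In 233 T or NK-like cells Kcnj8 was at 10.8 CPM (13 UMIs) and Abcc9 had no UMI, while in 703 B-like cells Abcc9 had 1 UMI and Kcnj8 none. In 288 erythroid-like cells Abcc9 was at 16.6 CPM and Kcnab1 at 17.3 CPM, beside UMIs of each other member.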
